A study of Mus musculus with 8 samples.

Results

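A set of crypt base genes was followed in RNA-seq counts of mouse Paneth cells: Olfm4, Smoc2, Igfbp4, Gkn3, Slc12a2, Clca4a, Clca4b, Rgmb, Prom1 and Cdca7. These 10 genes, of 55414 gene identifiers in the table, were chosen by name as genes of crypt base stem cells outside the Wnt pathway. They were selected on the same counts that are described here, with differences between the diets already known, so all values by diet are a description and not independent evidence. The choice had no threshold, so no gene lies just inside or just outside of it. The libraries came from Paneth cells purified by FACS from small intestine. The 8 mice were C57BL/6J, 4 fed standard chow (control) and 4 fed zinc depleted chow (zinc deficient), both freely available for 7 weeks. Each mouse gave 1 library, made from total RNA with a stranded mRNA kit, and the diets share strain, tissue and sorting. The age and sex of the mice are not given in the labels, and whether the mice shared cages or sorting days is not stated.

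The epithelium of the small intestine renews itself from stem cells at the bottom of the crypts, where slender stem cells sit wedged between the much larger Paneth cells. Paneth cells secrete antimicrobial peptides and give the neighbouring stem cells growth signals, among them Wnt ligands, EGF and Notch ligands. Genes such as Olfm4 and Smoc2 are known as markers of these stem cells rather than of Paneth cells, while Prom1 and Slc12a2 are known to be expressed by a broader set of crypt cells. A bulk library sums over all cells collected, so fewer cells of a type and less RNA per cell cannot be told apart.

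The libraries held 8557690 to 11826416 counts in control mice and 9924102 to 12648005 in zinc deficient mice. The labelled cell type was checked with 7 Paneth cell products (Lyz1, Defa24, Defa30, Mmp7, Itln1, Ang4 and Mptx2), which took 46.2% to 57.0% of the counts in control mice and 52.2% to 60.8% in zinc deficient mice. The 10 crypt base genes together took 0.168% to 0.284% of the counts in control mice and 0.0732% to 0.144% in zinc deficient mice. Levels below are CPM on library sizes scaled with the TMM method (scaled CPM), unless a level per length is named. The TMM factor of control 1, at 1.57, lay above those of the other 7 mice, which ranged from 0.719 to 1.16. The limits given for 0 counts cover counting error only, while SD and SE cover the spread among mice.

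Clca4a and Clca4b, both of a family of secreted and membrane proteins that modulate calcium-activated chloride conductance, are neighbours on the minus strand of chromosome 3 and close copies of each other. On GRCm39, Clca4b (ENSMUSG00000074195) lies at chr3:144616682-144638290 and Clca4a (ENSMUSG00000068547) at chr3:144658241-144680806, each with 14 exons in its canonical transcript in GENCODE M39. Their coding sequences are 2775 bases each, of which 110 differ, so that 96% are identical. The first 120 coding bases are shown because they let a reader see how few letters tell the copies apart, with the 4 differing bases in capitals.

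Clca4a: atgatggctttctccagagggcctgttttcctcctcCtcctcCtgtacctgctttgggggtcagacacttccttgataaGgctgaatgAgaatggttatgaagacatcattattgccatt
Clca4b: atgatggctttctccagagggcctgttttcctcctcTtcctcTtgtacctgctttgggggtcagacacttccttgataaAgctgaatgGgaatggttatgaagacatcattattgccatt

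Of all windows of 70 bases in the Clca4a mRNA, 13.2% occur unchanged in the Clca4b mRNA, and the share is also 13.2% in the other direction. With windows of 50 bases it was 20.9% of the Clca4a windows, and with 100 bases 5.96%. A read within such a window has no unique source, so the split of counts between both genes is uncertain to that extent. The sequence upstream is less alike. The 250 bases before the annotated starts, at chr3:144680807-144681056 for Clca4a and chr3:144638291-144638540 for Clca4b (minus strand, GRCm39, 5′ to 3′), are 87.7% identical. Capitals mark bases that differ or that face a gap in the alignment.

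Clca4a upstream: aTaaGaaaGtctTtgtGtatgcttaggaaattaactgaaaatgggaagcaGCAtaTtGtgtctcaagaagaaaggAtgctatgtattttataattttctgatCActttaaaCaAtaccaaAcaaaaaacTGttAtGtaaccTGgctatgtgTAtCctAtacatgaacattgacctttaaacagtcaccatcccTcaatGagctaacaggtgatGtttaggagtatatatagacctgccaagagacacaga
Clca4b upstream: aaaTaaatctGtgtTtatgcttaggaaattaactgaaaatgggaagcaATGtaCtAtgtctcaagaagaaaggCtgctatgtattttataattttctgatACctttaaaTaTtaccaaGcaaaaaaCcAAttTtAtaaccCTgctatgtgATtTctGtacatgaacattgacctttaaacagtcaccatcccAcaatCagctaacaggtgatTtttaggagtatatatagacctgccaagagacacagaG

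Olfm4 (ENSMUSG00000022026, chr14:80221521-80260579 on the plus strand) encodes olfactomedin 4, a secreted glycoprotein. Its 250 bases before the start of the canonical transcript, chr14:80237441-80237690, are shown because they hold the one match among the 10 genes to the TCF/LEF letters searched (CTTTGAA or CTTTGAT, both strands). The match, in capitals, begins 238 bases before the start.

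Olfm4 upstream: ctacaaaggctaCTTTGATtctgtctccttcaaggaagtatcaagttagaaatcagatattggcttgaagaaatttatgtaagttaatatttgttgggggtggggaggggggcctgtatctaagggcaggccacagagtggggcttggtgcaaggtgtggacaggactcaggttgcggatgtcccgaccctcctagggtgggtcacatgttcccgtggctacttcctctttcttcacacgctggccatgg

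Such a match was present in 7.54% of the 21770 windows of the same length before all protein-coding genes, and in 1 of the 10 crypt base genes. The letters of a metal response element (TGCACNC or TGCGCNC, both strands) were present in 21.9% of all windows and in 3 of the 10, those of Smoc2, Igfbp4 and Prom1. The E-box letters CAGCTG were present in 11.9% of all windows and in 0 of the 10. A match in letters is a description of the window and no measurement of binding.

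Per length, Olfm4 stood far above the other 9 genes. Its mean was 299 TPM (counts per summed exon length, scaled to the same total in each library; SD 167, n = 8 mice), with a range of 100 to 575 TPM, and by its mean it was number 44 of 54749 genes. It took 62.8% of the counts of the 10 genes. Slc12a2 came next with 16.8 TPM ± 8.05 (SD, n = 8), then Smoc2 with 9.59 ± 3.25, and each of the 3 genes was above the next in all 8 mice. Prom1 (7.88 TPM), Clca4b (7.23), Cdca7 (7.14), Rgmb (5.94), Gkn3 (5.60) and Igfbp4 (5.19) formed a group without a fixed order, since by this length each was above the next in only 3 to 5 of the 8 mice. Clca4a was last, at 0.131 TPM ± 0.196, below Igfbp4 in 8 of 8 mice. With the length of the canonical transcript in place of all exons, Smoc2 (27.1 TPM) was ahead of Slc12a2 (22.9 TPM) in 7 of 8 mice, and Olfm4 (275 TPM) and Clca4a (0.114 TPM) kept the first and the last place. Prom1 (13.3 TPM) and Cdca7 (10.2 TPM) then stood above the next gene in 7 and 8 of the 8 mice, so the order within that group depends on the length used.

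**Figure D1:**
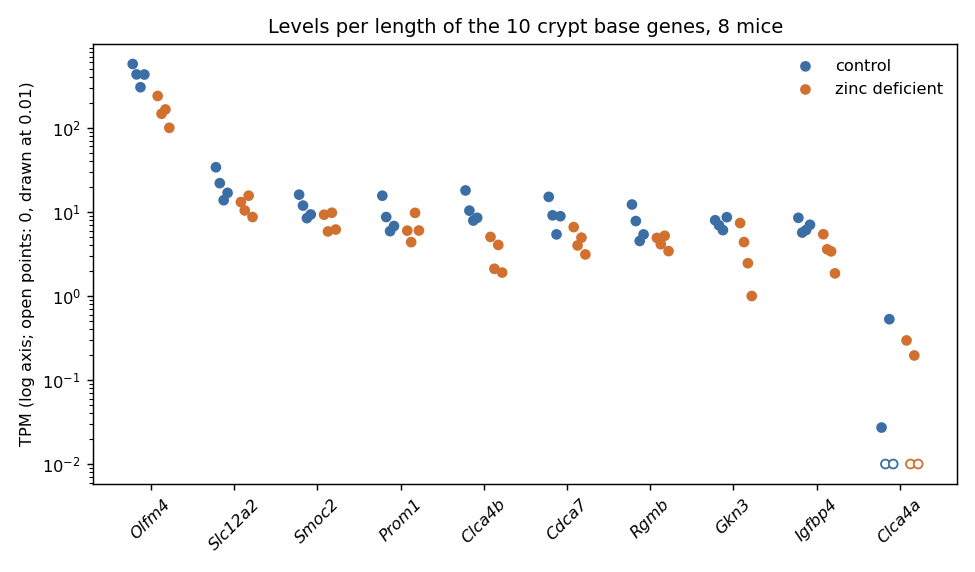
Level per length of each of the 10 crypt base genes, in TPM on a log axis, with 1 point per mouse (4 control, 4 zinc deficient) and open points at 0.01 for mice with 0 counts. Olfm4, at 100 to 575 TPM, lies above all other genes, and Clca4a is at 0 in 4 of the 8 mice.

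Of the secreted products Olfm4, Smoc2, Igfbp4 and Gkn3, Olfm4 differed most between the diets. In control mice 1 to 4 its scaled CPM were 1135, 1303, 1226 and 1715, and in zinc deficient mice 1 to 4 they were 956, 836, 536 and 443. All 4 zinc deficient mice lay below all 4 control mice, with means of 1345 ± 256 and 693 ± 243 (SD, n = 4). The fitted log2 difference, zinc deficient minus control, was -0.96 (SE 0.25), and it did not pass the threshold of the fit across all genes (edgeR quasi-likelihood test, Benjamini-Hochberg adjusted p = 0.108). It passed in 3 of 15 alternative settings.

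Smoc2, a matricellular calcium-binding protein, was almost level. Its scaled CPM were 98.6, 112, 106 and 116 in control mice and 115, 104, 98.7 and 85.0 in zinc deficient mice, so the diets overlapped. The log2 difference was -0.10 (SE 0.14).

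Igfbp4, which binds insulin-like growth factors, and Gkn3, a gastrokine, had overlapping diets and the same split among zinc deficient mice. Igfbp4 had 24.9, 25.3, 36.3 and 41.4 scaled CPM in control mice, and 32.0, 30.2, 16.3 and 12.2 in zinc deficient mice. For Gkn3 these were 5.99, 7.95, 9.33 and 13.1 in control mice and 11.2, 9.47, 3.03 and 1.68 in zinc deficient mice. Zinc deficient mice 1 and 2 were thus within the control range for both genes, and mice 3 and 4 below it. The log2 differences were -0.50 (SE 0.29) for Igfbp4 and -0.53 (SE 0.55) for Gkn3. The Gkn3 values rest on 74 to 124 counts in control mice and on 104, 75, 38 and 18 counts in zinc deficient mice. Zinc deficient mice 3 and 4 also had the highest sums of 7 goblet cell markers (3794 and 5172 scaled CPM, against 1590 to 3311 in the other 6 mice). The markers did not move together in zinc deficient 4. Its Muc2 (2433), Agr2 (1637), Clca1 (174) and Spdef (125) were the highest of all mice, while Fcgbp (111) and Zg16 (0.374) were the lowest. Zinc deficient 2 was close to it in Fcgbp (115) and Zg16 (0.379). For Zg16 both mice lay near the level of 3 counts (0.281 in zinc deficient 4 and 0.379 in zinc deficient 2). Tff3 (692) lay within the range of the other mice. The part of goblet cells in the values of Igfbp4 and Gkn3 was not tested.

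Of the genes of ion transport, Clca4b was the one gene of the 10 that passed the test. Its scaled CPM were 35.6, 31.3, 31.9 and 34.0 in control mice and 20.2, 12.0, 13.2 and 8.42 in zinc deficient mice. The control mice lay close together (33.2 ± 1.99, SD, n = 4) and all zinc deficient mice were below them (13.4 ± 4.92). The log2 difference was -1.31 (SE 0.20, adjusted p = 0.00719 by the edgeR quasi-likelihood test), and it passed in 14 of 15 alternative settings. The exception was scaling by library size alone, with a log2 difference of -1.66 (SE 0.32) and an adjusted p of 0.0537. Without zinc deficient 4, the mouse with the lowest level, the log2 difference was -1.13 (SE 0.19, adjusted p = 0.0158).

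Its close copy Clca4a was hardly present and was below the count minimum of the fit. Clca4a had 1, 0, 17 and 0 counts in control mice 1 to 4 and 11, 0, 8 and 0 counts in zinc deficient mice 1 to 4. In the 4 mice with 0 counts, up to 0.246 to 0.379 scaled CPM would be allowed (3 counts). The 3 mice with more than 1 count were those with the highest sums of 9 enterocyte markers, at 179 scaled CPM in control 3, 159 in zinc deficient 3 and 90.1 in zinc deficient 1, against 32.1 to 80.9 in the others. Whether enterocyte RNA contributed to the Clca4a counts was not tested.

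Slc12a2 encodes the sodium-potassium-chloride cotransporter NKCC1, which loads chloride into secreting cells. In control mice it had 285, 282, 236 and 285 scaled CPM, and in zinc deficient mice 222, 251, 215 and 163. Zinc deficient 2 was above control 3, so the diets overlapped, and the log2 difference was -0.35 (SE 0.17).

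Rgmb, a membrane-anchored co-receptor for bone morphogenetic proteins, had 102, 98.9, 76.5 and 90.5 scaled CPM in control mice and 82.5, 98.8, 71.0 and 63.7 in zinc deficient mice. These ranges overlapped, with a log2 difference of -0.22 (SE 0.16). Prom1 encodes prominin-1 (CD133), a glycoprotein of membrane protrusions. It had 79.9, 68.0, 61.8 and 70.2 scaled CPM in control mice and 62.0, 64.4, 82.0 and 69.0 in zinc deficient mice, so that the highest and the lowest mouse were on different diets from those of the other genes. Its log2 difference of -0.01 (SE 0.14) changed sign in 5 of the 15 alternative settings.

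Cdca7, a nuclear protein that brings the chromatin remodeler HELLS to DNA, had 42.7, 39.3, 31.1 and 50.6 scaled CPM in control mice. In zinc deficient mice it had 37.7, 32.5, 22.9 and 19.7. Zinc deficient mice 1 and 2 lay above control 3, and the log2 difference was -0.54 (SE 0.20). Hells itself had means of 7.73 ± 2.20 and 4.82 ± 1.53 scaled CPM (SD, n = 4) and a log2 difference of -0.70, with overlapping diets.

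**Figure D2:**
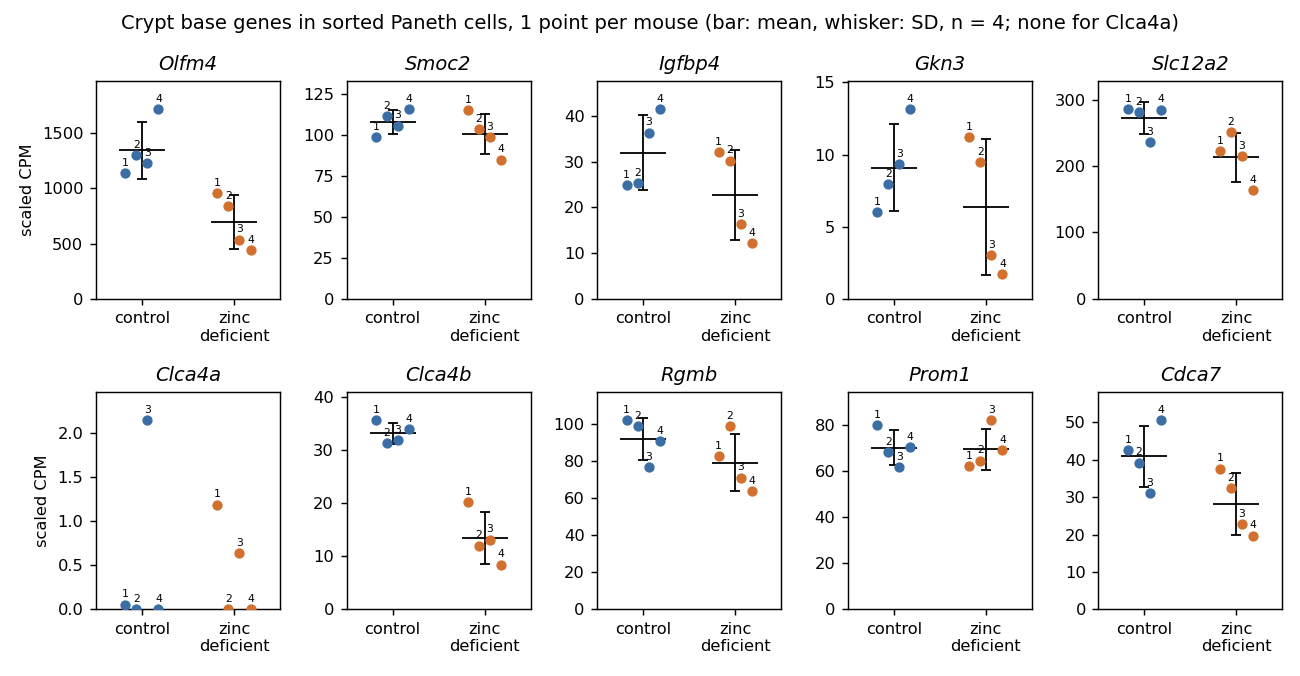
Scaled CPM of the 10 crypt base genes with 1 numbered point per mouse, and a bar and whisker for the mean and SD of each diet (n = 4), left out for Clca4a. The diets are apart for Olfm4 (1135 to 1715 against 443 to 956) and Clca4b (31.3 to 35.6 against 8.42 to 20.2) and overlap for the other 8 genes.

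Of the 9 crypt base genes in the fit, 1 passed the test, and it was lower in zinc deficient mice. Over all 10911 genes tested, 0.403% passed in either direction and 0.257% passed as lower. Fitted differences were below 0 for all 9, with a median of -0.50, while over all genes 50.7% were below 0 and the median was -0.0052. The diets did not overlap, with zinc deficient mice lower, for 2 of the 9 genes (Olfm4 and Clca4b) and for 3.79% of all genes. As the 10 genes were chosen with this comparison known, nothing is read from these shares. With scaling by library size alone the median over all genes was -0.37, and the values of Olfm4 (-1.30) and Clca4b (-1.66) are to be read against that shift.

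The mouse labelled zinc deficient 4 had the lowest scaled CPM of all 8 mice for 8 of the 9 genes in the fit, all but Prom1. Control 4 was the highest for 5 of them (Olfm4, Smoc2, Igfbp4, Gkn3 and Cdca7) and control 1 for 3 (Slc12a2, Clca4b and Rgmb). The summed scaled CPM of the 10 genes were 1810, 1967, 1817 and 2416 in control mice and 1540, 1438, 1059 and 866 in zinc deficient mice. Most of this sum is Olfm4.

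Ratios of counts within a library do not depend on the scaling of libraries. Olfm4 counts per Smoc2 count were 11.5, 11.7, 11.6 and 14.8 in control mice and 8.30, 8.06, 5.43 and 5.21 in zinc deficient mice, without overlap. Clca4b counts per 100 Smoc2 counts were 36.1, 28.0, 30.2 and 29.4 in control mice and 17.5, 11.6, 13.3 and 9.90 in zinc deficient mice, again apart. Set against Smoc2, both genes were thus lower in each zinc deficient mouse than in any control mouse. Per 100 Prom1 counts, Clca4b was at 44.6 to 51.6 in control mice and 12.2 to 32.5 in zinc deficient mice. Olfm4 per Prom1 count overlapped, at 14.2 to 24.4 and 6.41 to 15.4, and so did Olfm4 per Slc12a2 count, at 3.98 to 6.01 and 2.49 to 4.30. Against Lgr5, a further stem cell gene described below, Olfm4 overlapped too, at 27.5 to 46.8 counts per Lgr5 count in control mice and 16.6 to 35.4 in zinc deficient mice. Clca4b per 100 Olfm4 counts was 1.98 to 3.14 in control mice and 1.43 to 2.45 in zinc deficient mice, with overlap. Against the Paneth cell product lysozyme, Olfm4 had 0.729 to 1.24 counts per 100 Lyz1 counts in control mice and 0.265 to 0.492 in zinc deficient mice. This gap includes the denominator, as Lyz1 had 91423 to 168233 scaled CPM in control mice and 139528 to 240095 in zinc deficient mice.

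Other genes of the crypt base gave a background for these values. Of 30 further genes known from stem cells and the Wnt pathway, 29 were in the fit, 4 passed as lower and 0 as higher, with a median of -0.57. Fitted differences were below 0 for 22 of them and above 0 for 7, the highest being that of Hopx (0.36). Lgr5, the receptor for R-spondins that marks crypt base stem cells, had 41.3, 38.1, 39.5 and 36.6 scaled CPM in control mice and 27.0, 35.0, 32.2 and 15.2 in zinc deficient mice. The diets were apart for Lgr5, but its log2 difference of -0.51 did not pass (adjusted p = 0.337, edgeR). Ascl2, a transcription factor of these stem cells, had 7.21 to 9.74 and 3.09 to 8.52 scaled CPM. The 4 genes that fell were Sp5, a Wnt target (log2 difference -1.55, adjusted p = 0.0376), Esrrg, a nuclear receptor (-1.22, 0.0229), Vdr, the vitamin D receptor (-1.03, 0.0376), and Cd44, a hyaluronan receptor (-1.02, 0.0343). At an unadjusted p below 0.05 there were 16, beside 1142 of all 10911 genes in either direction. DESeq2 called 7, beside 146 of all 10911 genes in either direction. The number that passed in edgeR was 0 when control 2, control 4, zinc deficient 2 or zinc deficient 4 was left out. The list was written with results of these data known, and 4 of 29 is a description beside the 0.257% of all genes.

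Genes of cell division also had fitted differences below 0. All 28 proliferation genes were in the fit with differences below 0 and a median of -0.80, and 4 of them fell, beside 0.257% of all genes. These were Top2a, the topoisomerase of replicating DNA (-1.18, adjusted p = 0.0229 by edgeR), Ube2c, a ubiquitin-conjugating enzyme of mitosis (-0.92, 0.0484), and Mcm6 (-0.88, 0.0376) and Mcm7 (-0.83, 0.0384) of the replicative helicase. Mki67 had 29.3, 25.2, 14.1 and 23.1 scaled CPM in control mice and 9.39, 8.84, 14.5 and 17.6 in zinc deficient mice, and did not pass. At an unadjusted p below 0.05 there were 24 of the 28 genes, again beside 1142 of 10911. DESeq2 called 8 of the proliferation genes, beside 146 of all 10911 genes in either direction. The number that passed in edgeR was 0 without control 2, control 4, zinc deficient 2 or zinc deficient 4. The summed scaled CPM of the 28 genes were 324 to 388 in control mice and 180 to 253 in zinc deficient mice. The order of mice differed between both groups of genes. Zinc deficient 4, with the lowest sum of crypt base genes, had 228 scaled CPM of proliferation genes, and zinc deficient 2, with 180, had the lowest sum of these.

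**Figure D3:**
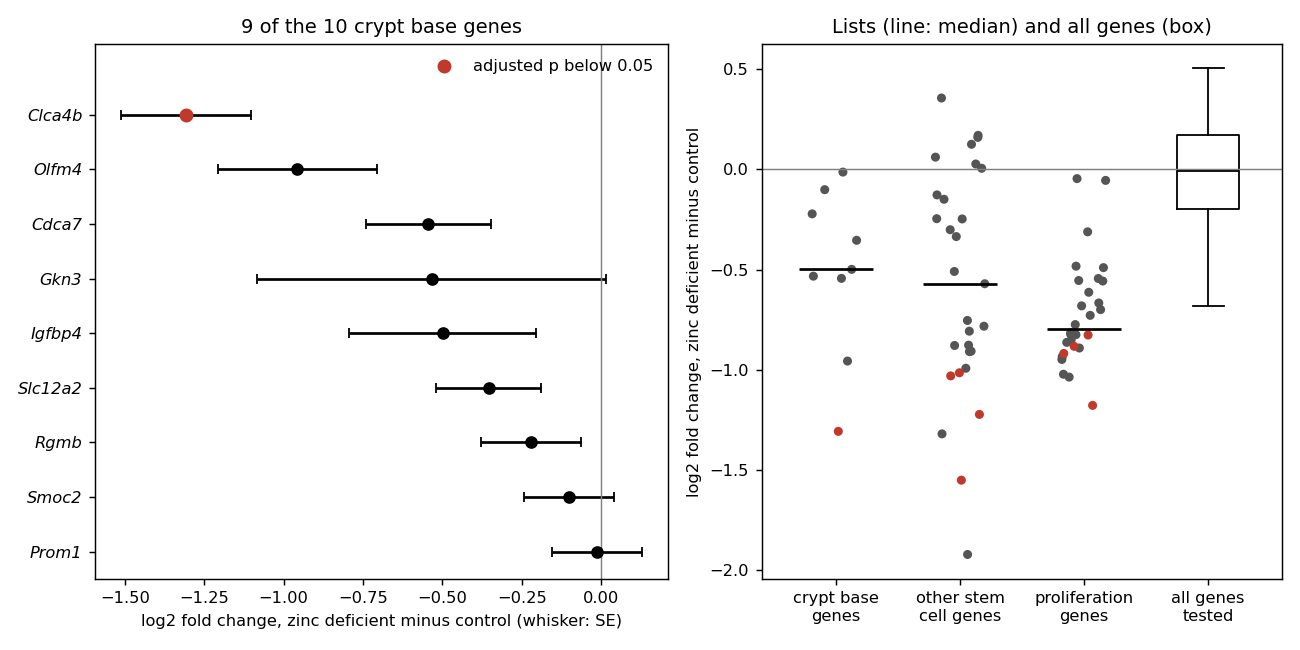
Left, log2 fold change (zinc deficient minus control) with its SE for the 9 crypt base genes in the fit. Right, the log2 fold changes of the same 9 genes, 29 other stem cell genes and 28 proliferation genes with their medians (-0.50, -0.57 and -0.80), beside a box of all 10911 genes with quartiles and whiskers at percentiles 5 and 95, where red points have an adjusted p below 0.05.

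Over the 8 mice, the crypt base genes other than Prom1 were positively correlated, some pairs only weakly by rank. Pearson correlations of log2(scaled CPM + 1) ranged from 0.57 to 0.98 over the 28 pairs of the 8 other genes (median 0.82), and from 0.41 to 0.98 (median 0.74) once the mean of each diet was subtracted. Spearman's rank correlations of these pairs went down to 0.24 (Smoc2 and Igfbp4, each with Rgmb). With diet means subtracted they went down to 0.21 (Clca4b with Rgmb). Zinc deficient 4 was the lowest mouse for each of these 8 genes. The closest pair was Igfbp4 and Gkn3 (r = 0.98). Over the 8 pairs with Prom1, r ranged from -0.51 to 0.10, or from -0.60 to 0.09 with diet means subtracted. The 8 points share their library, its scaling and the diet, so these values are a description.

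**Figure D4:**
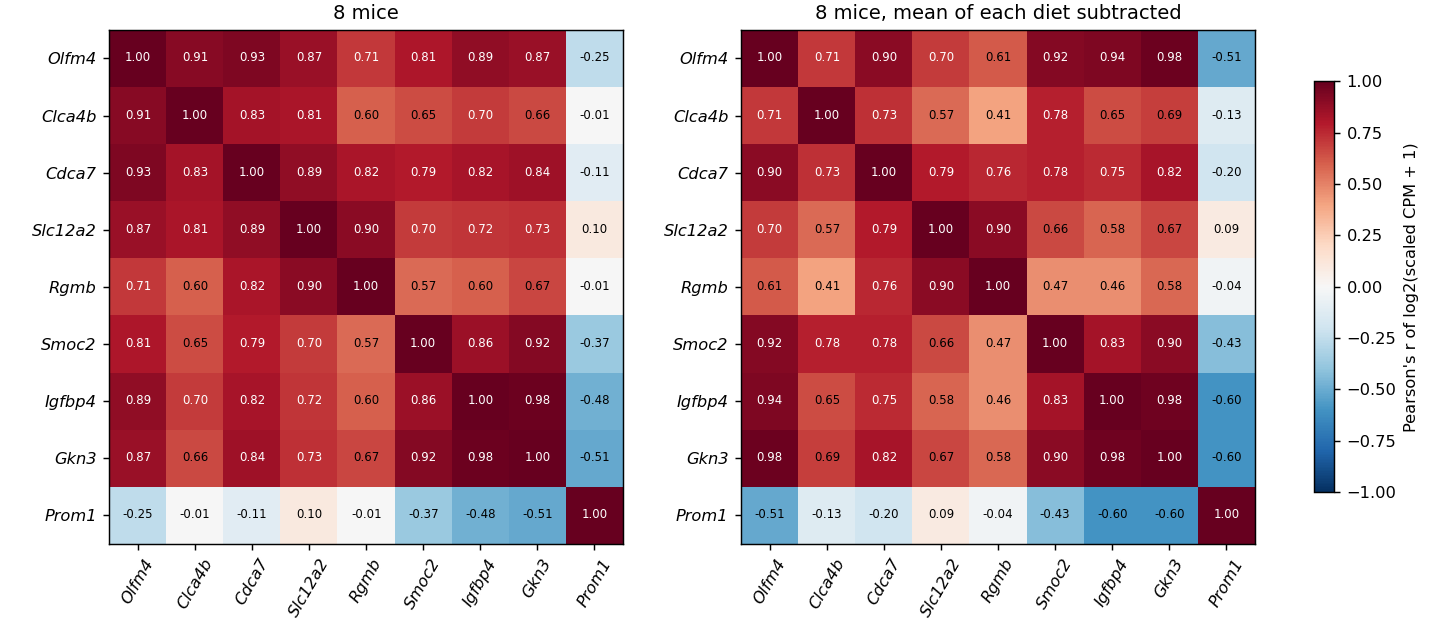
Pearson's r of log2(scaled CPM + 1) for each pair of the 9 crypt base genes in the fit over 8 mice, left as measured and right with the mean of each diet subtracted. All pairs of 8 genes are positive (0.57 to 0.98 on the left), while pairs with Prom1 lie between -0.51 and 0.10.

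Among the 7944 genes in the fit whose mean reached 5 CPM, those most like Olfm4 over the 8 mice were Ugt2b35, a glucuronosyltransferase (r = 0.97), Slc1a3, a glutamate transporter (0.97), Stmn1, a microtubule regulator (0.96), Tk1, the thymidine kinase of dividing cells (0.96), and Mfge8, a secreted milk fat globule protein (0.96). None of these 5 passed the test between the diets, with adjusted p of 0.0897 to 0.302 (edgeR). Of the crypt base genes, Cdca7 came closest, at place 18 (r = 0.93), and Clca4b was at place 35 (r = 0.91). Lgr5 was at place 297 (r = 0.75). Mki67, in contrast, had r = 0.35 with Olfm4, and -0.63 with diet means subtracted.

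Markers of other cells that could be in the sort were present at low levels next to the Paneth cell products. Sums of the 7 goblet cell markers were 1590 to 3169 scaled CPM in control mice and 2162 to 5172 in zinc deficient mice. The goblet sums were not low next to the crypt base genes, whose sums were 1810 to 2416 and 866 to 1540. The 9 enteroendocrine markers, of which Nts was at 0 in every mouse, summed to 21.2 to 41.6 in control mice and 16.2 to 41.3 in zinc deficient mice. Those of 9 enterocyte markers were 35.3 to 179 and 32.1 to 159, and those of 8 tuft cell markers 39.05 to 99.3 and 21.5 to 375. Among 9 immune cell markers, Cd3e, Cd8a and Gzma were at 0 in every mouse, and the sums were 36.1 to 91.4 and 46.5 to 66.2. Most of these immune sums was Lyz2 (14.7 to 51.7 over all mice) and Cd74 (7.41 to 76.4), while Ptprc was at 0 to 2.55. Of 9 stromal and vessel markers, Col1a1, Col1a2, Col3a1, Dcn and Acta2 were at 0 in every mouse, and no sum was above 1.60. None of the sums of these cell type markers separated the diets in scaled CPM, whereas those of the crypt base genes, the other stem cell genes and the proliferation genes did. For the other stem cell genes the gap was very narrow, with 900.3 in control 3 and 899.6 in zinc deficient 2. The lists were chosen with results of this comparison known, so nothing is read from this contrast. By Pearson's r over the 8 mice, the enteroendocrine sum was most like the sum of the crypt base genes (0.74, and 0.80 with diet means subtracted). The proliferation sum had 0.73 and -0.06, and the sum of other stem cell genes 0.71 and 0.22. Spearman's rank correlation over the 8 mice gave another order. It was 0.81 for the other stem cell genes, 0.79 for the proliferation genes and 0.62 for the enteroendocrine markers. In CPM without scaling, the enteroendocrine sums were also apart, at 33.1 to 48.3 in control mice and 13.7 to 29.7 in zinc deficient mice. Sums of the other stem cell genes overlapped in CPM, at 834 to 1607 in control mice and 646 to 905 in zinc deficient mice. The part of other cell types in the values of the crypt base genes was not tested.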

How the data were processed

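For 8 libraries made with the TruSeq stranded mRNA kit, the table deposited by the authors holds raw counts, in whole numbers, by Ensembl gene. The submitters' processing notes name FastQC 0.12.0, STAR 2.7.0a, DESeq2 and the build mm39 without giving their roles. How reads were counted, with which strand setting and on which annotation, is not given in the sources used here. Columns were matched to samples by diet and replicate number.

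Of 55414 identifiers, 54749 were found in GENCODE M39 on GRCm39, which gave symbols, exon lengths and positions. The 665 others held at most 0.00991% of the counts of a mouse. The comparison of diets used edgeR 4.0.16 under R 4.3.3 (TMM scaling, its expression filter, robust quasi-likelihood test, Benjamini-Hochberg adjustment over 10911 genes, threshold 0.05, no block). The SE is the log2 difference divided by the square root of F. Scaled CPM use TMM library sizes, and correlations use a pseudocount of 1. DESeq2 1.42.0, other scalings and filters, the replicate block and each mouse left out were alternatives. In 1 simulated data set, the edgeR step called 97% of 4-fold and 72% of 2-fold changes, and 6.11% of its calls were unchanged genes. Same-diet libraries differed beyond sampling noise (chi-square per degree of freedom of at least 5.70), and p-values measure the spread among these mice. Sequences were read from GRCm39 with Python 3.11.15 and aligned with Biopython 1.88.

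The members and lists were chosen with earlier results of these data known. The genes named are the 10 crypt base genes, Lgr5, Ascl2, Mki67 and Hells, every other gene of the stem cell and proliferation lists that passed the test, the 5 genes most correlated with Olfm4 among genes tested with a mean of at least 5 CPM, and the cell type markers. No annotated gene overlapping one of the 10 had more than 120 counts over the 8 mice. The level of 1 immune marker is not reported here.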

Additional observations from a re-analysis of the deposited data

Results flagged for a closer look

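Of 40 groups of 4 mice examined for a mouse far from the others (20 measures in each diet), 3 had one, and chance gives about 1 in 20 groups. Slc12a2 was at 236 scaled CPM in control 3, against 282 to 285 in the other 3 control mice. The sum of 8 tuft cell markers was 375 scaled CPM in zinc deficient 3, against 21.5 to 60.4 in the other 3 zinc deficient mice. Red blood cell markers summed to 0.656 scaled CPM in control 2, against 0 to 0.108 in the other 3 control mice. That sum rests on a few counts, as 3 counts equal 0.246 scaled CPM in control 2.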

How the results depend on the processing

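The test between the diets called 44 genes. Scaling by library size alone gave 11, no filter beyond 1 count in all 251, DESeq2 146, and the quasi-likelihood test without robust estimation 25, while leaving out 1 mouse gave 8 to 36 (8 without control 2 or control 4). Of the crypt base genes, 1 was called, and 2 (Clca4b and Olfm4) with no filter or with DESeq2. Leaving out any 1 mouse kept Clca4b as the 1 gene called (adjusted p 0.00154 to 0.0474, edgeR), and Olfm4 had adjusted p of 0.0796 to 0.314. Olfm4 was called with scaling by library size alone (-1.30, adjusted p = 0.0284), with no filter (-0.96, 0.000684) and with DESeq2 (-0.94, 0.0055). Prom1 had a log2 difference above 0 in 5 settings: 0.0073 with the size factors of DESeq2, 0.0071 with DESeq2, and, in 3 of the 8 fits that left out 1 mouse (range -0.10 to 0.0556), 0.0386 without zinc deficient 1, 0.0222 without zinc deficient 2 and 0.0556 without control 1. Of the other stem cell genes 4 were called, but 0 with library size alone, 10 with no filter, 7 with DESeq2, 2 without robust estimation and 0 to 4 with 1 mouse left out. For proliferation genes, 4 became 0, 10, 8 and 1 in the same settings, and 0 to 2 with 1 mouse left out. Both lists had 0 calls without control 2, control 4, zinc deficient 2 or zinc deficient 4. The cause of these changes was not tested.

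The labels give both diets the replicate numbers 1 to 4. Deviations of same-numbered mice correlated at 0.0049 to 0.11, so the numbers were not taken as pairs. With the replicate block, 53 genes were called, with 1 crypt base gene (Clca4b), 7 other stem cell genes and 4 proliferation genes. The mean sum of the 10 genes was 1682 CPM, 365 TPM from all exons and 373 TPM from canonical transcripts, a setting chosen after seeing the data. The depth limits statements on Clca4a, with at most 17 counts in a mouse.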
